A study of Mus musculus with 8 samples.

Results

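Ptprd encodes a receptor-type protein tyrosine phosphatase, and its chromatin accessibility was described here in 4 mouse melanoma cell lines. The regions were all those of the deposited coverage table that overlapped the Ptprd gene body (gene ID 19266, GRCm38, chromosome 4, 75941237 to 78211742) or lay within 50 kb of it with Ptprd as the nearest protein-coding gene end. Of the 148664 regions in the table, 62 met this rule: 61 overlapped the gene body and 1 lay outside it. The gene was chosen by its genotype difference in these counts, because 32 of the 46 internal regions with enough counts to test were higher in both knockout lines than in both wild-type lines, so the genotype difference at Ptprd is given below as a description, with no test.

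The data were ATAC-seq libraries, in which a transposase cuts open chromatin and the number of reads in a region measures how accessible it was. Lines 112 and 113 were STAT3 knockout (labelled Stat3∆), and lines 119 and 73 were labelled wild type and carried the floxed allele (Stat3fl). Cells from the lymph nodes of animals whose cutaneous melanoma appeared at 25 to 30 weeks gave rise to all 4 lines, and each line gave 2 libraries of 50000 cells. The labels call each line both a pool and a clone, name no Cre driver and do not say whether the 2 libraries came from separate cultures. They give lines 112, 113, 119 and 73 the p numbers 18, 44, 14 and 68, and do not state what these mean. Only 2 lines per genotype stand behind any genotype difference, and p-values between lines measure only the spread between replicate libraries, which may be technical.

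PTPRD belongs to the type IIa (LAR-like) receptor phosphatases with PTPRS and PTPRF. These proteins carry immunoglobulin and fibronectin type III domains outside the cell and a pair of phosphatase domains inside it. At synapses they bind adhesion partners such as the SLITRK proteins and IL1RAPL1, and inside the cell they bind liprins. PTPRD is also known as a tumour suppressor that is deleted, mutated or silenced in several cancers, melanoma among them, and phosphorylated STAT3 is one of its reported substrates.

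Ptprd is 2270506 bp long, which makes it the second longest protein-coding gene in the gene table, and the next protein-coding genes lie 663 and 2622 kb away. The gene is read from its high-coordinate end towards its low-coordinate end, so distances below are counted in kb from 78211742 into the gene. The 62 regions were 501 to 1015 bp wide (median 544.5 bp) and covered 37.1 kb. Neighbouring regions inside the gene were 1.75 to 203 kb apart (median 21.1 kb). Exon positions were not used here, so a region inside the gene is not assigned to an exon or an intron. Of the 62 regions, 6 overlapped an annotated lncRNA and 2 a pseudogene, 4 of them in the lncRNA Gm42303 (76450892 to 76490112), which lies inside Ptprd. The authors had called a peak in at least 1 library at 35 of the 62 regions.

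The 2 genes on either side are shown by the 250 bases before their starts (RefSeq, GRCm38.p6). They were chosen because the start region of Tyrp1 had the accessibility pattern of Ptprd and that of Dmac1 did not (values below). Tyrp1, a melanocyte enzyme of pigment synthesis, is the next gene beyond the start of Ptprd, and Dmac1, an assembly factor of mitochondrial complex I, is the next gene beyond its finish. Both are printed 5′ to 3′ on the strand of the gene, chr4:80833963-80834212 on the plus strand for Tyrp1 and chr4:75278293-75278542 on the minus strand for Dmac1. The Tyrp1 window runs to 80834212, while the interval before Tyrp1 used for distances ends at 80834122, so the 2 use different starts of the gene. Capitals mark the E-box variant CATGTG.
Tyrp1: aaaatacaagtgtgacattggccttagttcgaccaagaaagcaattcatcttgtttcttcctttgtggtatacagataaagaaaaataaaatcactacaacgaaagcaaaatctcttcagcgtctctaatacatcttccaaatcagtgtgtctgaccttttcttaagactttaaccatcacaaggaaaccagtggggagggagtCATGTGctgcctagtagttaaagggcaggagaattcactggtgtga
Dmac1: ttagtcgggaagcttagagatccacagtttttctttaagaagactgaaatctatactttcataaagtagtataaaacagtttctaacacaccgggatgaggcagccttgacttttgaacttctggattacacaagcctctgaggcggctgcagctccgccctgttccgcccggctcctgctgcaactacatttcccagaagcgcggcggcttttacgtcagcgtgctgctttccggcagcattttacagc
The letters CATGTG are an E-box of the kind read by basic helix-loop-helix factors such as MITF. They stood 46 bases before the start of Tyrp1 that its window uses, and occurred in 12.3% of 32851 such windows, searched on both strands. The SOX letters ACAAAG (16.5% of windows) and the RUNX letters TGTGGT (14%) each occurred once in the Tyrp1 window, where they overlapped. The STAT letters TTCNNNGAA occurred once in the Dmac1 window and in 7.02% of all windows. The letters CACGTG (6.02% of windows), TGANTCA (6.75%), TTGCNNAA (9.56%) and GGAATG (12.6%) were in neither window.

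Accessibility at Ptprd was higher in both knockout lines than in both wild-type lines, and it was also uneven between the knockout lines. The summed level of the 62 regions, as CPM (counts per 1000000 on TMM-scaled library sizes), was 168 and 129 in line 112 and 324 and 274 in line 113. In the wild-type lines it was 15.8 and 21.2 (line 119) and 43.8 and 50.1 (line 73). The lowest knockout library was thus above the highest wild-type library, and the 4 lines did not overlap one another.

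**Figure D1:**
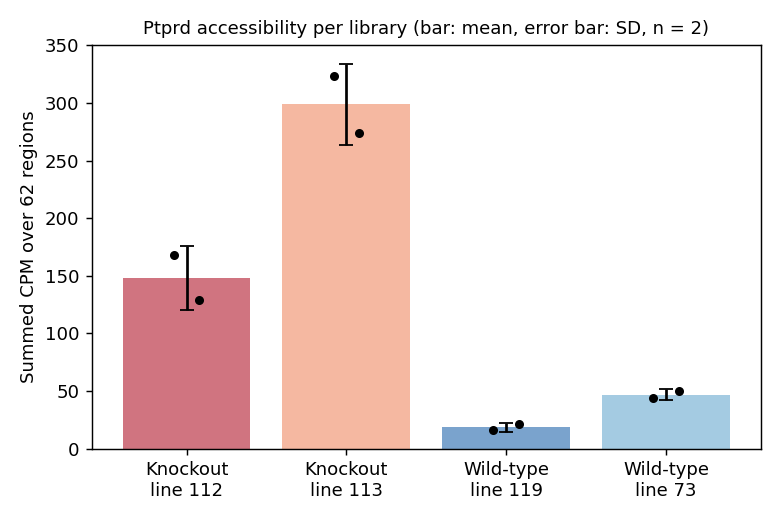
Summed CPM over the 62 Ptprd regions (vertical axis) in each library (points), with the mean and SD of the 2 libraries of each line (bars and error bars). The mean of line 113 is 299, that of 112 is 148, that of 73 is 46.9 and that of 119 is 18.5.

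The mean was 148 ± 27.6 CPM in line 112 and 299 ± 35.0 in 113, and 18.5 ± 3.88 in 119 and 46.9 ± 4.47 in 73 (SD, n = 2 libraries each). The mean of the knockout lines was 224 ± 107 CPM and that of the wild-type lines 32.7 ± 20.1 CPM (SD, n = 2 lines each), a ratio of 6.83 (log2 2.77). The ratio for a single pair of lines ran from 3.16 for line 112 over line 73 to 16.2 for line 113 over line 119. Over the 61 regions of the gene body alone it was 8.64-fold (log2 3.11). The order from the highest to the lowest level was line 113, line 112, line 73 and line 119. Bulk counts of this kind cannot tell a larger share of cells with an open region from more open chromatin in every cell, and the number of DNA copies in each line was not measured.

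When each knockout line was set against each wild-type line (4 pairs), 32 of the 47 regions tested were past an adjusted p of 0.05 as higher in the knockout line, 0 as lower, and 15 did not pass in every pair. Over all 140329 regions tested the shares were 7.63% higher and 7.42% lower. These are the values that chose the gene, and the count of 32 was 20 without line 112 replicate 1, 19 without line 73 replicate 2 and 17 with DESeq2. The remaining 15 of the 62 regions did not pass the count filter, which asks for enough counts in more than 1 line. For example, the region 77278963 to 77279596 was not tested. It had 23 and 12 counts in line 113 and 2 and 5 in line 112. In the counts of all 62, the 4 knockout libraries lay above the 4 wild-type libraries without overlap in 48 regions and below them in 0, against 13.6% and 12.1% of all regions in the table. Both knockout line means exceeded both wild-type line means in 55 of the 62 regions, against 23.5% of all regions.

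**Figure D2:**
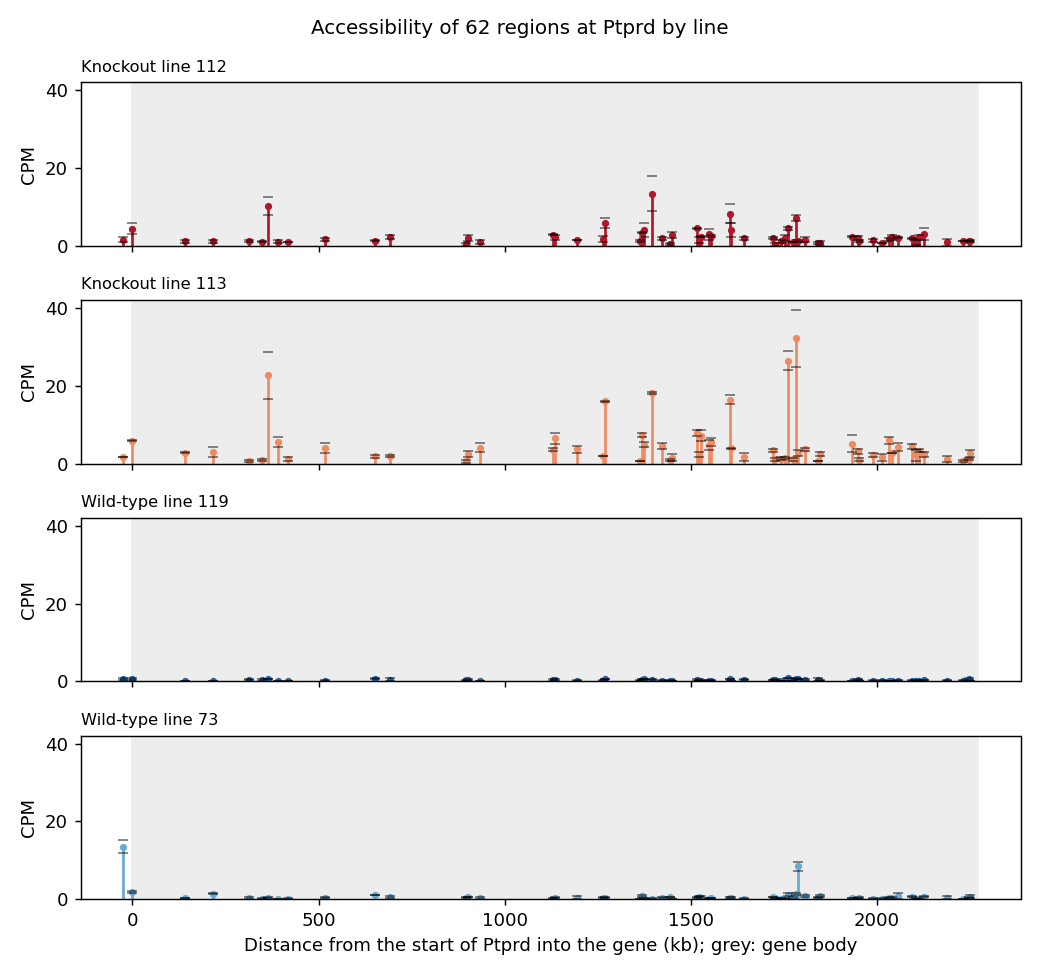
CPM of each of the 62 regions (vertical axis) against the distance from the start of Ptprd in kb (horizontal axis, grey over the gene body), 1 panel per line; points are line means and dashes the 2 libraries. The tallest signals in lines 112 and 113 are spread through the gene, while no library of line 119 exceeds 0.896 CPM at any region, and the tallest signals of line 73 are 2 regions, 1787 kb into the gene and before its start.

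The raw counts behind these values were small in the wild-type lines. The 62 regions together held 731 and 422 counts in the libraries of line 112 and 1440 and 1144 in those of 113. The wild-type libraries had 123 and 127 (line 119) and 173 and 182 (line 73), out of 2697546 to 7464336 counts per library. Line 119, with the lowest level at Ptprd, had the 2 libraries with most counts (7464336 and 5736939). The median count per region was 8 and 5 in line 112, 13 and 12 in 113, 1.5 and 2 in 119, and 1 in both libraries of 73, so a single wild-type value has a wide counting error.

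Many of the regions were close to empty in the wild-type lines. Regions with 3 counts or fewer numbered 50 of 62 in each library of line 119 and 53 of 62 in each of line 73, against 9 and 19 in line 112 and 9 in each library of line 113. For comparison, 15702 regions outside Ptprd had peaks in knockout libraries only, as did 33 of the 62 regions at Ptprd. Of the 15702, 15.6% and 21.7% had 3 counts or fewer in line 119 and 37.8% and 44.7% in line 73. Over all 62 Ptprd regions the shares were 80.6% in line 119 and 85.5% in line 73. Those 62 include 27 without a peak in any library, so the sets are not alike. In line 119, regions elsewhere with no peak in the library had a median of 9 and 8 counts, above the median of 1.5 and 2 at Ptprd. In line 73 the medians were 6 and 5 elsewhere and 1 in both libraries at Ptprd. Knockout line 112 also lay below, with 10 in both libraries elsewhere and 8 and 5 at Ptprd. Line 113 lay above, with 7 in both elsewhere and 13 and 12 at Ptprd. The Ptprd medians are over all 62 regions, with or without a peak in the library. In the libraries of line 113, 24 and 26 of the 62 had a peak, so these sets are not alike either.

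The authors' peak calls were most frequent in line 113 and absent in line 119, while lines 112 and 73 overlapped. A peak lay at 6 and 1 of the 62 regions in the libraries of line 112 and at 24 and 26 in those of 113, but at 0 in both libraries of 119 and at 2 in each of 73. Of the 35 regions with any peak, 33 had peaks in knockout libraries only and 2 in wild-type libraries only. Peaks were called for each library separately, and line 112 had the fewest peaks in all (38743 and 20387, against 51700 and 52250 in line 113). Inside the gene body, the highest fold over background in the authors' deposited peak list was 12.4 for line 112, 12.1 for 113 and 8.56 for 73. The region outside the gene body, where line 73 also had a peak, is left out of these values.

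The region at the annotated start of Ptprd (chromosome 4, 78211706 to 78212302) was not among the strongest. It also lies in the lncRNA gene B230208B08Rik (78210727 to 78220294), so its signal cannot be given to one gene or the other. It had 2.98 and 5.79 CPM in line 112 and 6.07 and 5.75 in line 113. In the wild-type lines it had 0.896 and 0.335 CPM in line 119 and 2.02 and 1.65 in line 73. Knockout and wild-type libraries did not overlap there, with means of 5.15 ± 1.08 and 1.23 ± 0.864 CPM (SD, n = 2 lines each), and the authors called a peak in 2 of the 8 libraries. Between the knockout lines the start region did not pass the test (log2 -0.48, SE 0.38, edgeR adjusted p = 0.381).

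The regions with the highest mean levels lay deep in the gene. The region 1397 kb from the start (76814711 to 76815344) had 17.9 and 8.84 CPM in line 112 and 18.4 and 18 in line 113, and between 0 and 0.512 CPM in the 4 wild-type libraries, a 56.3-fold ratio of line means. It carried peaks in all 4 knockout libraries and was the site of the highest peak fold in both libraries of line 112. The lncRNA Gm42302 ends 1.68 kb from it. The region 1782 kb from the start (76429428 to 76430373) had 7.80 and 6.40 CPM in line 112 against 39.6 and 24.9 in line 113, the highest single value in the locus, and 0.512 to 1.52 CPM in the wild-type libraries. The region at 363 kb (77848253 to 77848969) had 12.6 and 7.93 CPM in line 112, 28.8 and 16.5 in 113, and 0.275 to 0.669 CPM in the wild-type libraries. All 3 were present in both knockout lines, and the last 2 differed most in how strong they were.

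In the other 2 of the 5 strongest regions line 113 was again above line 112 by mean, and both were above the wild-type lines. At 1605 kb (76606323 to 76607104) the levels were 10.8 and 5.79 CPM in line 112, 17.5 and 15.3 in 113, and 0 to 0.64 in the wild-type libraries. At 1762 kb (76449548 to 76450145) they were 4.13 and 4.88 CPM in line 112, 29.0 and 24.0 in 113, and 0.826 to 1.52 in the wild-type libraries. This last region lies 747 bp outside the lncRNA Gm42303. The 5 strongest regions together held 30.3% of the summed level in line 112 and 38.8% in line 113.

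Some regions were almost without counts in wild type, where a ratio is only loosely known. Over the 4 wild-type libraries, 1 region had no count and 13 had 1 to 3 counts. The one without a count (1449 kb, 76762829 to 76763329) had 2.06 and 3.66 CPM in line 112 and 0.674 and 2.40 in line 113, and was at least 14.9-fold higher in the knockout lines when the wild-type level was set to the 3 counts over 4 libraries that a count of 0 allows. The region at 392 kb (77819243 to 77819755) had 55 counts in the knockout libraries and 1 in the wild-type libraries. Its ratio of 72.3 has a 95% counting interval of 12.4 to 2907, which covers counting error only.

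Of the 3 regions with the smallest ratios, 2 had a lower mean in the knockout lines, being high in line 73 and low in line 119, as described below. The third (77316501 to 77317044) was low in every library, between 0 and 0.959 CPM, with a knockout to wild-type ratio of 1.38, and was not tested.

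Lines 112 and 113 carry the same genotype label, and the difference between them was not the value that chose the gene. Both knockout levels entered that choice, and with few wild-type counts the regions reached the test largely through knockout counts. A peak lay in line 113 at 31 of the 62 regions and in line 112 at 6. The comparison with all regions is therefore a description of selected regions. Of the 47 regions tested, 11 were lower in line 112 than in line 113 and 0 were higher (edgeR quasi-likelihood test, adjusted p under 0.05). Over all regions, 15.8% were lower in line 112 and 8.14% higher, so the members' count of 11 of 47 lay above the share of all regions in one direction and below it in the other. The fold change was negative in 41 of the 47, with a median of log2 -0.82 against 0.07 over all regions. Over all 62 regions, 51 had a higher mean in line 113. The unadjusted p was under 0.05 in 20 of the 47. All 11 regions that passed were among the 32 of 47 that were higher in knockout lines in every pair. The same knockout counts enter both calls, so the overlap is no separate result. The count fell to 7 without line 112 replicate 2, to 4 without line 113 replicate 1 and to 4 with DESeq2.

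**Figure D3:**
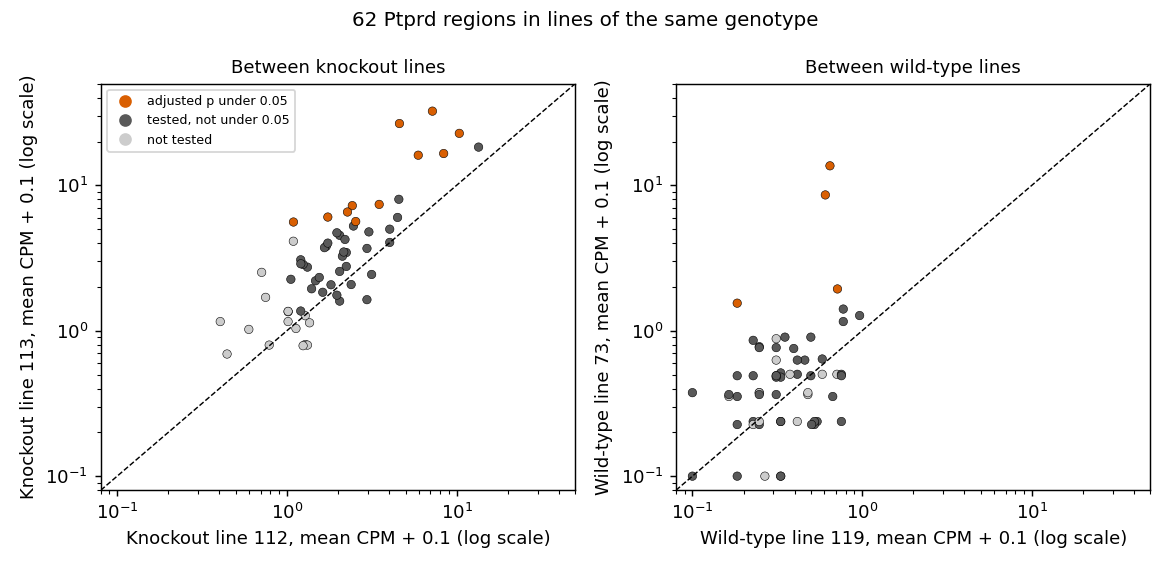
Mean CPM of each of the 62 regions in one line against the other line of the same genotype, on log axes after adding 0.1; orange points passed the edgeR test, dark points did not and pale points were not tested, and the dashed line marks equality. In the knockout panel 11 regions are orange and all lie on the side of line 113; in the wild-type panel 4 are orange, all on the side of line 73.

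The 3 smallest p-values belonged to regions deep in the gene. The region at 1762 kb was lower in line 112 by log2 -2.56 (SE 0.29, edgeR adjusted p = 1.43e-09). The region at 1782 kb differed by log2 -2.17 (SE 0.28, edgeR adjusted p = 2.34e-08). The region at 1270 kb (76941079 to 76942020), with 7.11 and 4.57 CPM in line 112 and 16.2 and 15.8 in line 113, differed by log2 -1.42 (SE 0.29, edgeR adjusted p = 1.9e-04). In each of these 3 regions both libraries of line 112 lay below both of line 113.

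Of the other 8 calls, 3 belonged to named regions. The region at 363 kb differed by log2 -1.12 (SE 0.27, edgeR adjusted p = 0.00147), which became log2 -0.64 with an adjusted p of 0.173 without line 113 replicate 1. The region at 1605 kb differed by log2 -0.95 (SE 0.28, edgeR adjusted p = 0.0102) and lost the call in 4 of 16 alternatives, among them total counts (log2 -0.62, adjusted p = 0.0951) and DESeq2 (log2 -0.98, adjusted p = 0.138). At 392 kb the difference was log2 -2.36 (SE 0.57, edgeR adjusted p = 0.00135) on few counts.

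The element with peaks in every knockout library, at 1397 kb, did not pass the test between these lines (log2 -0.41, SE 0.27, edgeR adjusted p = 0.274). Its value rested on line 112 replicate 2, which at 8.84 CPM stood apart from the other 3 knockout libraries: without that library the difference was log2 0.02, and without line 112 replicate 1 it was log2 -1.05 with an adjusted p of 0.0102. The profile along the gene was nevertheless alike in both knockout lines. Across the 62 regions the log2(CPM + 1) of their means correlated at r = 0.832, as a description, since regions of one library are not independent and share its depth. The 5 strongest regions of line 112 and of line 113 had 4 in common. For the wild-type lines the same r was 0.362.

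Lines 119 and 73 share the wild-type label. Of the 47 regions tested, 4 were lower in line 119 than in line 73 and 0 higher (edgeR, adjusted p under 0.05), while 29.4% of all regions were lower in line 119 and 27.5% higher. The median over the 47 was log2 -0.76, against -0.10 over all regions, and 32 of the 47 had a negative fold change. With 1 or 2 counts in most wild-type values, a difference between these lines was not detectable at this depth in most of the locus.

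Line 73 had a pair of strong elements of its own. The first (76424687 to 76425366, 1787 kb from the start) had 7.34 and 9.63 CPM in line 73 and 0.512 and 0.502 in 119. The knockout libraries had 1.38 and 0.915 CPM (line 112) and 3.60 and 1.92 (line 113). It was lower in line 119 by log2 -3.99 (SE 0.47, edgeR adjusted p = 2.04e-10). Only 4061 bp separate it from the region at 1782 kb, whose levels ran the other way, up to 39.6 CPM in line 113 and at most 1.52 in line 73. The second element was the only region outside the gene body (78235295 to 78236306, 23.6 kb before the start), 529 bp from the pseudogene Gm11260. It had 11.9 and 15.1 CPM in line 73 and 0.256 to 2.13 CPM in the other 6 libraries, and differed between the wild-type lines by log2 -4.65 (SE 0.43, edgeR adjusted p = 1.22e-13). These were the 2 regions with peaks in wild-type libraries only.

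The other regions that passed between wild-type lines were weak. The region at 217 kb (77994199 to 77994699) had 1.52 and 1.38 CPM in line 73 against 0 and 0.167 in line 119 (log2 -3.89, SE 1.06, edgeR adjusted p = 0.0015). The start region differed by log2 -1.47 (SE 0.63, edgeR adjusted p = 0.042) and lost the call in 7 of 16 alternatives. Without the pair of elements high in line 73, the summed level of line 73 was 1.43 times that of line 119, where it was 2.54 times with them, and the knockout to wild-type ratio was 10.4 (log2 3.38) in place of 6.83.

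The median wild-type level was low in every segment of the gene, with the line 73 element at 1787 kb as a strong exception in the last. The gene was divided into 4 equal segments counted from its start, which held 9, 7, 18 and 27 regions. The median level per region in the third segment was 2.65 CPM in line 112 and 4.65 in line 113, against 0.221 in line 119 and 0.327 in line 73. In that segment 14 of 16 tested regions were higher in every knockout to wild-type pair. The counts in the other segments were 4 of 6, 3 of 5 and 11 of 19, from the start onwards, so no segment was without such regions.

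**Figure D4:**
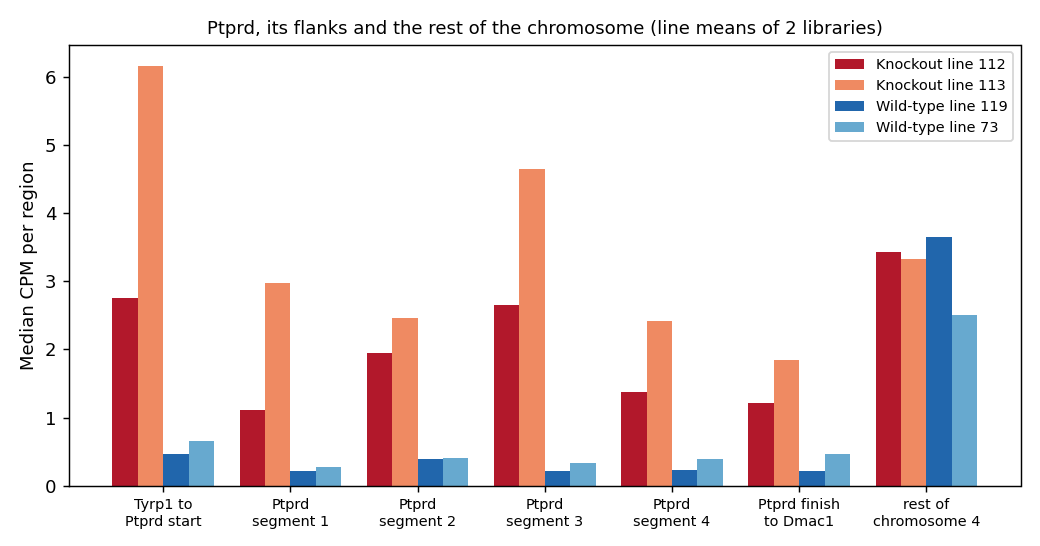
Median CPM per region (vertical axis, line means of 2 libraries) in the intervals on either side of Ptprd, in the 4 equal segments of the gene from its start, and in the other regions of chromosome 4. Wild-type bars stay at or below 0.655 CPM through the gene and both intervals, and rise to 2.50 and 3.66 on the rest of the chromosome.

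The median wild-type level per region was also low on both sides of the gene. In the 663 kb between Ptprd and Dmac1, the median over 16 regions was 1.22 and 1.84 CPM in lines 112 and 113 against 0.212 and 0.465 in lines 119 and 73, and 4 of 8 tested regions were higher in every pair. In the 2622 kb between the start of Ptprd and Tyrp1, the median over 19 regions was 2.75 and 6.17 CPM against 0.463 and 0.655, with 8 of 16. On the rest of chromosome 4, 760 of 8252 tested regions were higher in every pair and 519 lower, and over all regions 7.63% were higher. The interval towards Tyrp1 was not near empty in wild type by its summed level, with 3.83 and 3.21 CPM per kb of region in lines 119 and 73, against 0.497 and 0.925 in the Ptprd gene body. The region with most counts among those of Tyrp1 (80819429 to 80819994) lies there. It had 20.6 and 18.7 CPM in line 119 and 1.26 and 1.65 in line 73. Line 112 had 8.95 and 6.71 CPM at this region and line 113 had 21.1 and 16.1, so it did not follow the order of the lines at Ptprd. The remaining 8619 regions of chromosome 4 had medians of 3.43, 3.33, 3.66 and 2.50 CPM in lines 112, 113, 119 and 73. Regions were also sparser at Ptprd, at 2.69 per 100 kb against 5.63 on the rest of the chromosome.

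The nearest regions beyond the 50 kb limit carried the patterns of the regions inside it. The one beyond the finish (75878890 to 75879390, 61.8 kb from the gene) had 1.38 and 2.13 CPM in line 112 and 1.80 and 2.88 in line 113, with 0 to 0.826 in the wild-type libraries. The one beyond the start (78408603 to 78409126, 197 kb away) had 5.06 and 4.68 CPM in line 73 and 0.128 to 1.2 elsewhere, as did the line 73 element before the start.

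The start regions of the neighbouring genes differed from each other. The region at the start of Dmac1 (75278023 to 75278623) had 6.71 to 17.1 CPM in the knockout libraries and 12.4 to 16.8 in the wild-type libraries, which overlap (log2 -0.20, SE 0.75, edgeR adjusted p = 0.948 with lines as units). The region at the start of Tyrp1 (80833919 to 80834951), which covers the sequence printed above, had 5.51 and 4.88 CPM in line 112 and 18.7 and 12.0 in line 113. It had 1.02 and 1.00 CPM in line 119 and 2.02 and 3.58 in line 73, so the genotypes did not overlap and the 4 lines had the same order as at Ptprd, but with lines as units it did not pass (log2 2.47, SE 0.95, edgeR adjusted p = 0.212). No region in the genome passed that test (0 of 140329, 0.0%, with 23715 at an unadjusted p under 0.05; DESeq2 called 6774). Scaled to chromosome 4, edgeR called 2175, without line 112 replicate 1 it called 633, and on regions overlapping a peak it called 205.

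Among genes, the accessibility of Ptprd in the wild-type lines was at the bottom of the range. Per kb of region inside the gene body, Ptprd had 4.06 CPM in line 112 and 8.23 in 113, against 0.497 in 119 and 0.925 in 73. The median over 2256 protein-coding genes with at least 10 internal regions was 8.04, 10.4, 9.32 and 9.75 CPM per kb in the same order. Counted from the lowest, Ptprd ranked 1 of 2256 in line 119, 6 in 73, 180 in 112 and 720 in 113. Of the 140329 regions tested, 125675 overlap a peak of at least 1 library, so a gene with peaks in other lines keeps its regions in a line without them.

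**Figure D5:**
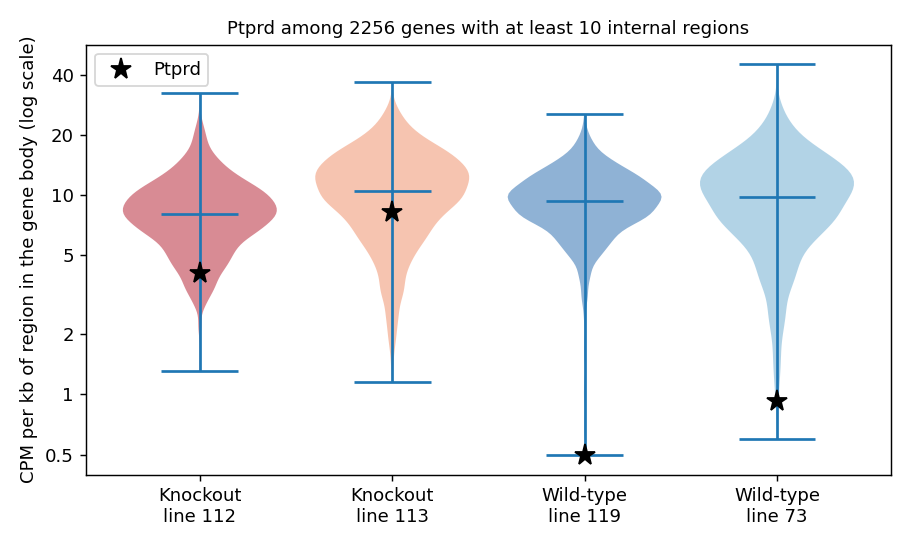
Distribution over 2256 protein-coding genes of CPM per kb of region in the gene body (log axis) for each line, with the median as a bar and Ptprd as a star. The star lies at 0.497 and 0.925 in lines 119 and 73 and at 4.06 and 8.23 in lines 112 and 113.

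The genes whose summed levels followed those of Ptprd most closely over the 8 libraries were Sorcs1, a VPS10-domain sorting receptor (r = 0.997), Epha6, an ephrin receptor (0.994), Eefsec, the selenocysteine elongation factor (0.990), Lpin1, a phosphatidate phosphatase (0.986), and Oca2, a melanosomal transport protein (0.985). The 8 libraries came from 4 lines, so r is a description, the Pearson correlation of log2(summed CPM + 1). Sorcs1 had 8.07 and 19.1 CPM per kb in lines 112 and 113 and 0.678 and 1.75 in lines 119 and 73. Oca2 had 7.56 and 11 against 0.999 and 1.22, and Lpin1, with 10.4 and 11.8 against 7.60 and 8.41, matched the order but not the size.

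The genes of the same pathway, as a group, lay near or below the share of all regions. In 26 genes of the lists below, 344 of 371 regions were tested, and none passed with lines as units (edgeR, 0 of 344; DESeq2 called 6), with 45 (13.1%) at an unadjusted p under 0.05 against 16.9% of all regions. In every knockout to wild-type pair, 23 (6.69%) were higher in knockout and 13 (3.78%) lower, against 7.63% and 7.42% of all regions. Their median was log2 -0.15, against -0.09 over all regions.

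Of the other type IIa phosphatases, Ptprs and Ptprf, 1 of 25 tested regions was higher and 1 lower in every pair (median log2 0.08). Ptprs had 15.9, 21.2, 22.8 and 21.4 CPM per kb in lines 112, 113, 119 and 73, and Ptprf 7.37, 5.47, 10.1 and 4.66, so neither was near empty in the wild-type lines. The strongest region of Ptprs (chromosome 17, 56462086 to 56462785) had 39.3 to 82.7 CPM in the knockout libraries and 36.4 to 73.6 in the wild-type libraries, with broad overlap.

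Among the extracellular partners (the Slitrk genes, Il1rapl1, Il1rap, Ntrk3, Lrrc4b, Lrfn4 and Lrfn5), 7 of 93 tested regions were higher and 2 lower in every pair, with a median of log2 -0.02. Il1rapl1, a synaptic partner of PTPRD, had 2 of 14 higher with a median of log2 1.84, and Il1rap had 3 of 20 higher and 1 lower. Slitrk4 had no region. Among the intracellular partners (the liprins Ppfia1 to Ppfia4 and the exchange factor Trio), 8 of 94 were higher and 4 lower (median log2 0.01), of which Trio gave 6 and 4.

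Among other phosphatases that act on STAT proteins (Ptpn1, Ptpn2, Ptpn6, Ptpn11, Ptprk and Ptprt), 6 of 121 regions were higher and 6 lower, with a median of log2 -0.49. The only region of Ptpn6, the phosphatase SHP-1 (chromosome 6, 124732837 to 124733990), had 32.0 to 60.3 CPM in the knockout libraries and 3.79 to 10.6 in the wild-type libraries. The genotypes did not overlap there, and with lines as units it had log2 2.58 (SE 0.69, edgeR adjusted p = 0.144). At Stat3 itself, which the knockout targets, 1 of 11 tested regions was higher and 0 lower in every pair; the position of the deleted part was not used here, so this checks no label.

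The tissue label was checked on marker genes. Regions of the 7 melanocyte genes (Mitf, Sox10, Tyr, Dct, Pmel, Mlana and Tyrp1) had 11.8, 17.4, 7.63 and 6.73 CPM per kb in lines 112, 113, 119 and 73, and 32 of 103 tested regions (31.1%) were higher and 2 (1.94%) lower in every pair. Over all regions 7.63% were higher and 7.42% lower. The summed melanocyte level was higher in both knockout lines, as at Ptprd, but line 119 stood above line 73, unlike Ptprd, and the part of these genes in the result was not tested. Not every gene followed the sum. Pmel had 39.3 CPM per kb in line 73 against 25.3 in 112 and 39.2 in 113, and Tyrp1 had 5.54 in 119 against 5.41 in 112. The strongest region counted for Pmel lies at an end of the gene Rab5b, with 74.9 and 72.7 CPM in line 73. The Pmel level therefore cannot be given to Pmel alone. Line 73 was low at Tyr (1.21, against 9.46 to 18.6 in the other lines) and at Sox10 (4.42, against 17.4 to 25.1). The 14 marker genes of T cells, B cells, leucocytes, macrophages, endothelium, fibroblasts, keratinocytes and neurons had 7.56, 6.39, 7.52 and 12.4 CPM per kb in the same order, with 5 of 85 regions (5.88%) higher and 6 (7.06%) lower, near the shares of all regions. Line 73 was highest for Ptprc (11.7 CPM per kb, against 3.18 to 3.82 in the other lines) and for the fibroblast genes (16.3, against 7.21 to 9.97). It was also highest for the endothelial (10.9, against 6.47 to 6.85) and keratinocyte genes (8.66, against 2.45 to 7.07). Line 119 was highest for the macrophage (14.1, with 12.0 in line 73), B cell (9.11) and neuron genes (10.8, with 10.5 in line 73). Line 112 was highest for the T cell genes (4.61). Cd3g and Cd79a had no region.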

How the data were processed

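The deposited table holds raw counts per region for 8 libraries, and the regions and counts are the authors' own. Per the submitters' processing notes, Bowtie2 2.2.4, Picard 1.118 and MACS2 2.1.1.20160309 were used with mm10. Whether reads, fragments or cuts were counted, and whether duplicates were removed or positions shifted for the transposase, is not given in the sources used here. The deposited peak lists give, for each library, a score, the fold over background as a ratio, and p and q as −log10. They were used only to mark regions with a peak and to name the highest fold.

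Regions were placed with RefSeq GRCm38.p6 gene coordinates. Regions with low counts were left out with filterByExpr on counts summed per line (minimum count 10, minimum total 15), which left 140329 of 148664. Counts were scaled with TMM and fitted with edgeR 4.0.16 (robust quasi-likelihood, 1 mean per line, two-sided, Benjamini-Hochberg over all regions tested, threshold 0.05), and with lines as units on counts summed per line. The fit was tested on simulated data. Library totals ran from 2697546 to 7464336 counts, and intervals cover counting error only. Named regions follow a rule: the start region, the 5 with the highest mean, the 5 largest and 3 smallest ratios, the 3 smallest p per comparison, those at the 50 kb limit, and related genes at their strongest region, of which a selection is printed. The members, lists and rules were chosen with earlier results of these data known. Alternatives were other scalings, filters and members, DESeq2 1.42.0, a replicate block and leaving out each library.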

Additional observations from a re-analysis of the deposited data

Results flagged for a closer look

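The summed level and the named Ptprd regions, each in the knockout and in the wild-type libraries, gave 28 sets of 4 values. In 4 sets 1 library stood far from its 3 partners. For 4 independent values chance does so in about 1 set in 20; these sets hold 2 lines of 2 libraries, so that rate need not apply to them. At 1397 kb, line 112 replicate 2 had 8.84 CPM and the other knockout libraries 17.9 to 18.4. At the start of Ptprd, line 112 replicate 1 had 2.98 CPM and the others 5.75 to 6.07. At 1762 kb, line 73 replicate 1 had 1.52 CPM and the other wild-type libraries 0.826 to 0.896. At 392 kb, line 119 replicate 2 had 0.167 CPM, which is 1 count, and the other wild-type libraries had 0.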

How the results depend on the processing

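The count of 11 regions lower in line 112 than in line 113 was 4 with DESeq2, 7 without line 112 replicate 2, and 4 without line 113 replicate 1, and leaving out 1 library at a time gave 4 to 10. The count of 4 between lines 119 and 73 stayed between 3 and 5. The description of 32 regions higher in every pair became 17 with DESeq2, 20 without line 112 replicate 1 and 19 without line 73 replicate 2, with 19 to 30 when 1 library was left out. The summed ratio of log2 2.77 was 3.11 over the gene body alone, 2.53 scaled to chromosome 4 and 3.38 without the 2 regions high in line 73, an alternative chosen after seeing the data; it was 2.69 to 2.85 with 1 library left out. The related genes had 0 calls, but 1 when scaled to chromosome 4, 6 with DESeq2 and 2 without line 112 replicate 1 (0 to 2 with 1 library left out). Their 36 regions past the threshold in every pair were 18 with DESeq2, 12 of 46 tested at a mean count of at least 50, and 25 to 40 with 1 library left out. The difference of P39, the region at 1397 kb, reversed to log2 0.0216 without line 112 replicate 2 and was -1.05 without line 112 replicate 1 (lines 112 against 113). Over a selection of the named regions, 180 alternatives gave an adjusted p, and alternatives that gave none are left out. The region at 392 kb had only 8 of them, where most others had 16. Of the 180, 166 kept direction and side of the threshold, 12 lost the call, 1 gained it and 1 reversed. The cause was not tested. With the replicate block the counts were 11, 4 and 31. The numbers share only a label, since replicate differences of different lines correlated between -0.0368 and 0.00388. A mean count of at least 50 left 0 Ptprd regions to test, so depth limits single regions.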
